A study of Homo sapiens with 6 samples.

Results

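The genes that carried H3K27me3 over input were examined in G401 cells, a malignant rhabdoid tumor cell line without SMARCB1, after 3 days with the vehicle DMSO. Of 56638 genes in the count table, 21263 were measured, which were those with at least 100 counts in the DMSO and MAK683 input libraries together. The choice used input chromatin alone and not the H3K27me3 values. In DMSO, H3K27me3, H3K4me3 and input were each sequenced in 1 library, with 19162778 counts for H3K27me3 and 16837480 for input. Input and H3K27me3 from cells given 3 µM MAK683, which binds the PRC2 subunit EED, for 3 days served as a second input and for comparison. No library had a replicate, so no test was made, and intervals cover counting error only. SMARCB1 itself had 0 counts in DMSO H3K27me3 and in both inputs, so no fold was given for it.

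H3K27me3 is placed by Polycomb Repressive Complex 2 (PRC2), in which EZH2 or EZH1 is the catalytic subunit and EED and SUZ12 are needed for activity. The mark is a sign of silenced chromatin and is known above all from developmental regulators, whose gene starts are often rich in CG dinucleotides (CpG islands). H3K4me3 marks the starts of active genes, and starts that carry both marks are called bivalent. SMARCB1 is a subunit of the SWI/SNF remodeling complexes, which act against Polycomb complexes, and rhabdoid tumors without it depend on PRC2.

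The sequences before the starts of 7 genes are shown as examples, with many CG at high and low H3K27me3 and with few CG at high H3K27me3. Each line holds the 250 bases before the annotated start in RefSeq on GRCh38.p14, 5′ to 3′, with CG dinucleotides in capitals, and the genes were chosen after their values were seen.
NKX1-1, highest H3K27me3 over input, chr4:1406443-1406692, minus strand: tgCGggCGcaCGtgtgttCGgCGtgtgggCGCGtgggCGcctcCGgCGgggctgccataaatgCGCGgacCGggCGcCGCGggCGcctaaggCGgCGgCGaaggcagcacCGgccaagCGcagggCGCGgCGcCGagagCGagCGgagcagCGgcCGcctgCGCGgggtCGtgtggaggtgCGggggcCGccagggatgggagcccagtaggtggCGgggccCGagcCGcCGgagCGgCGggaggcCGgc
SLC32A1, high H3K27me3 over input, chr20:38724236-38724485, plus strand: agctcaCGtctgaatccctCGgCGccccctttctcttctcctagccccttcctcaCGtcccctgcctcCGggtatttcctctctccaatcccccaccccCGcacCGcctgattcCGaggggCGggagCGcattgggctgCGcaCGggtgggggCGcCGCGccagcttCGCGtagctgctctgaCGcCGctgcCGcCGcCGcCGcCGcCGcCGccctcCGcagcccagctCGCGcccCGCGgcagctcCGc
TCHH, high H3K27me3 over input with few CG, chr1:152115445-152115694, minus strand: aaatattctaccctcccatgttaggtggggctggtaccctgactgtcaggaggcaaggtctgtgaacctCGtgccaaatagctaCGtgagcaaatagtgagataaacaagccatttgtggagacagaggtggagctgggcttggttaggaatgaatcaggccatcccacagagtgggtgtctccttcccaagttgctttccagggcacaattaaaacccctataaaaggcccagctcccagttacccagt
KRT5, in a run of keratin genes above input, chr12:52520395-52520644, minus strand: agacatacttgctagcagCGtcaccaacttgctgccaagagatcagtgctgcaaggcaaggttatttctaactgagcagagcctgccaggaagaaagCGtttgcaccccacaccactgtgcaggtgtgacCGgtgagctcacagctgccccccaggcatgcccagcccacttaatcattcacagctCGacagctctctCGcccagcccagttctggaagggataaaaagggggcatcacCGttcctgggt
DLX2, the homeobox gene lowest in H3K27me3, chr2:172102901-172103150, minus strand: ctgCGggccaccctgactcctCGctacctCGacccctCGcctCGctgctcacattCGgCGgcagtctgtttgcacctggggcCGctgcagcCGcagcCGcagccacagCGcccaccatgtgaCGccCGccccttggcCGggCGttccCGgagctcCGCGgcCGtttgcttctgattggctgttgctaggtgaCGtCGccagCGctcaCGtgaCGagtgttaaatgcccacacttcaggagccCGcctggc
RPL24, the ribosomal protein gene lowest in H3K27me3, chr3:101686719-101686968, minus strand: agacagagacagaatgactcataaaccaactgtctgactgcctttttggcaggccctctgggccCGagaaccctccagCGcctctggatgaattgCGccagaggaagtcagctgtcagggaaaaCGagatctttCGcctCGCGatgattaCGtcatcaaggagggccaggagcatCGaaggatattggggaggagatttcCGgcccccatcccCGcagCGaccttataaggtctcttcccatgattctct
HSPA8, among the lowest genes, chr11:123062137-123062386, minus strand: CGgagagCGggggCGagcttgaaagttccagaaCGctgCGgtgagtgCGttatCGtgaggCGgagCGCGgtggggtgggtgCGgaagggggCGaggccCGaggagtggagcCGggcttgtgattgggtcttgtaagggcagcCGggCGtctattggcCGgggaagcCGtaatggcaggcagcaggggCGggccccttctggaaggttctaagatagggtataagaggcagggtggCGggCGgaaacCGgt
The 250 bases held 42 CG in NKX1-1, 32 in SLC32A1, 25 in DLX2, 22 in HSPA8, 12 in RPL24, 6 in KRT5 and 2 in TCHH. A CG-rich start was therefore found at both ends of the range. Starts with few CG are shown at the high end only, since RPL24 at the low end held 12.

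H3K27me3 lay above input at a minority of genes and formed a broad upper group. Each value is the log2 of CPM (counts scaled to the total of the library) in H3K27me3 over CPM in input, with 0.05 CPM added to both. At least 2-fold above input were 2278 genes, 10.7% of those measured, with a 95% exact interval from 10.3 to 11.1%. At least 2-fold below were 6140 genes, 28.9%, with an interval from 28.3 to 29.5%. The median was -0.75, with an interval of the median from -0.76 to -0.74, and single genes ranged from -3.19 to 3.77. Of all measured genes, 5802 (27.3%) were above input at all. The same ratio between the MAK683 input and the DMSO input had a median of 0.0018, with 20 genes (0.0941%) at least 2-fold higher and 4 (0.0188%) at least 2-fold lower. CPM divides each library by its own total, so reads gathered at marked genes lower the value of all others. Relative to the median gene, 5084 genes (23.9%) were at least 2-fold higher and 135 (0.635%) at least 2-fold lower. A value below input is therefore a share of reads and not an absolute loss of the mark.

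**Figure D1:**
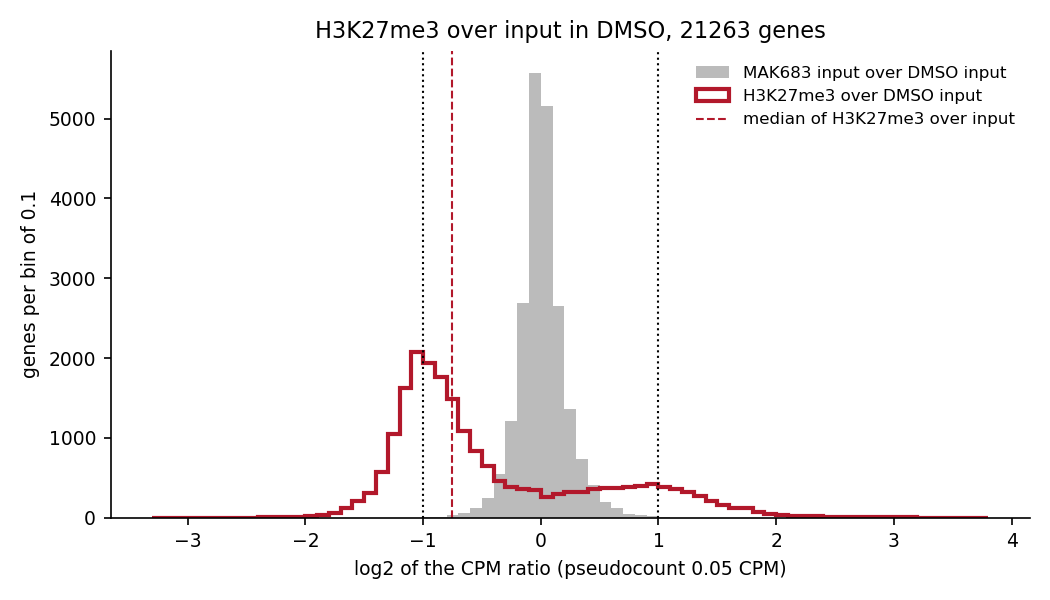
Number of genes (y axis, bins of 0.1) by log2 ratio of CPM (x axis) for H3K27me3 over DMSO input (red line) and MAK683 input over DMSO input (gray), for 21263 genes, with dotted lines at 2-fold and a dashed line at the median. The H3K27me3 ratios have a main peak near the median of -0.75 and a long shoulder above input that the ratio of the inputs, with a median of 0.0018, does not have.

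The 2278 genes at least 2-fold above input held 24.6% of the H3K27me3 counts of all measured genes and 9.88% of their input counts. The 6140 genes at least 2-fold below held 11.5% and 25.4%. When counting error was allowed for, the near bound of the interval still passed 2-fold at 1568 genes above and 1795 below. Over the MAK683 input, 1979 of the genes above and 4690 of those below also passed 2-fold. At the edge of the group, HAPLN1 had 2391 counts in H3K27me3 and 1050 in input and lay just inside, and the clone-named RP11-523L1.2 had 547 and 240 and lay just outside. At the lower edge VAT1 had 90 and 159 counts and lay just inside, and NDUFC1 had 160 and 282 and lay just outside.

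The highest protein-coding genes were mostly transcription factors of embryonic patterning. By the lower bound of the interval, the 15 highest were NKX1-1, IRX3, FEZF2, CHST2, TFAP2C, RAX, SLC32A1, OSR1, NRN1, LHX5, IRX4, DLX5, PDX1, TCHH and DBX1. The homeobox gene NKX1-1 (chr4:1396720-1400230 on hg19, minus strand) had 525 counts in H3K27me3 and 33 in DMSO input, a log2 of 3.77 with an interval from 3.30 to 4.36. IRX3 (chr16:54317216-54320699, minus strand), another homeobox gene, had 501 and 34 counts, a log2 of 3.66. FEZF2 (chr3:62355356-62359999, minus strand), which specifies forebrain neurons, had 516 and 41 counts, a log2 of 3.44. The ratio of the MAK683 input to the DMSO input reached 1.44 at most over all genes.

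LHX5 (chr12:113899838-113910085, minus strand), a homeobox gene of the developing brain, had the most H3K27me3 counts of the 15, 1261 against 135 in input. Among the other regulators, RAX of the eye field had 817 and 78 counts, DLX5 of bone and forebrain 487 and 49, and PDX1 of the pancreas 543 and 56. The members that are not transcription factors were CHST2, a sulfotransferase (499 and 43 counts), SLC32A1, the vesicular transporter of GABA (684 and 65), NRN1, a neurite protein (912 and 94), and TCHH, a protein of the hair follicle (877 and 99). All 15 genes were between 3.48 and 10.2 kb long.

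The choice of the highest ratios favors genes with a low DMSO input. Over the MAK683 input, which entered the choice only through the minimum of 100 summed counts, the 15 genes had a median of 2.86 in place of 3.17, and all 15 were at least 2-fold above. This is not an independent check, since a gene with few DMSO input counts passed the minimum only with more in the MAK683 input. NKX1-1 had 33 counts in the DMSO input and 72 in the MAK683 input, and a log2 of 2.88 over the latter. OSR1 had 41 counts in the DMSO input and 114 in the MAK683 input, with a log2 of 3.27 and 2.02. PDX1 went the other way, with 56 and 48 input counts and a log2 of 3.07 and 3.50.

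The lowest protein-coding genes included housekeeping genes of transcription, translation, transport and protein folding. Among the 15 lowest upper bounds were those of HEXIM1, C6orf136, C8orf59, SLC25A1, RPL24, CCDC160, ZBTB6, ZNF740, C11orf42, WDR75, SAR1A, SERTAD4, HSPA8 and RPL22L1. HEXIM1 (chr17:43225842-43229466, plus strand), an inhibitor of the elongation factor P-TEFb, had 7 counts in H3K27me3 and 63 in DMSO input, a log2 of -3.19 with an interval from -4.73 to -2.23. SLC25A1 (chr22:19163094-19166252, minus strand), the mitochondrial citrate carrier, had 12 and 70 counts, a log2 of -2.64. RPL24 (chr3:101399935-101405577, minus strand) had 20 and 95 counts, a log2 of -2.38. The chaperone gene HSPA8 (chr11:122928197-122933938, minus strand) had 20 and 81 counts, a log2 of -2.15. H3K4me3 was at least 2-fold above input at 12 of these 15 genes, against 31.2% of protein-coding genes, with 4.27 (log2) at HEXIM1 and 4.21 at HSPA8. The 15 genes had a median length of 5.74 kb, against 37.9 kb in protein-coding genes, and the part of length in this was not tested. C11orf42 differed, with -1.65 in H3K4me3 beside 23 H3K27me3 and 96 input counts. The median of the 15 was -2.34 over the DMSO input and -2.09 over the MAK683 input. H3K4me3 was not particular to the low end. At the 15 highest genes it was at least 2-fold above input at 9 and above input at all 15, with a median of 1.13 against 2.91 at the 15 lowest. These ratios share the DMSO input with the choice of genes, so a low input raises both marks at the highest genes. A high input lowers both at the lowest genes. H3K4me3 over the MAK683 input was not examined.

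**Figure D2:**
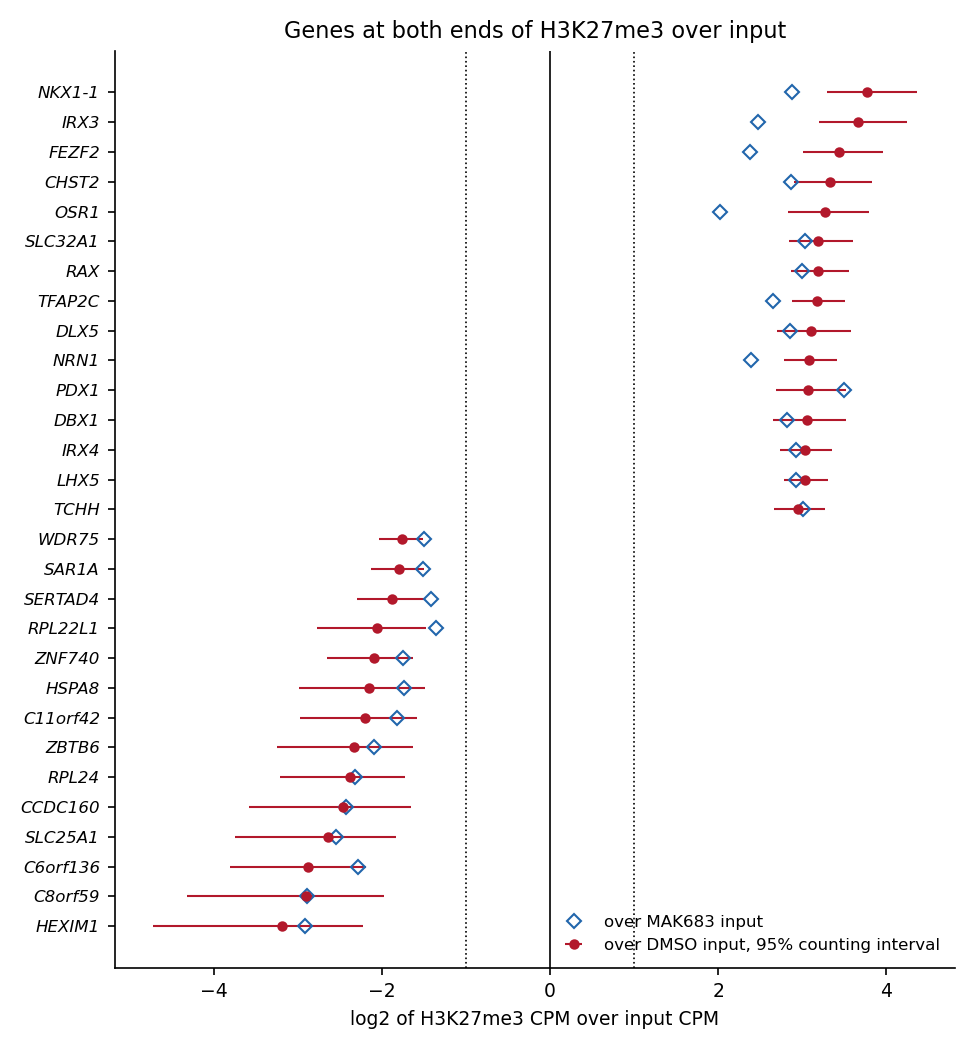
Log2 of H3K27me3 CPM over input CPM (x axis) for the 15 genes with the highest lower bounds and 14 of the 15 with the lowest upper bounds (y axis), over DMSO input (red, with 95% counting intervals) and over MAK683 input (open diamonds). All genes shown stay past 2-fold (dotted lines) over either input, although many of the highest genes, such as OSR1, lie lower over the MAK683 input.

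By family, the homeobox genes outside the HOX clusters stood highest among the lists with more than a few members. Of 138 such genes in the table, 108 were measured, and 52 of them (48.1%) were at least 2-fold above input, against 8.99% of the 14821 measured protein-coding genes. Another 8 (7.41%) were at least 2-fold below, against 34.4%, and the median was 0.96. After NKX1-1 and IRX3, RAX had 3.19, DLX5 3.10, POU3F2 of neural progenitors 3.09, DBX1 3.05, IRX4 3.03, LHX5 3.03 and EVX2 2.96. PDX1, a homeobox gene that the list does not hold, had 3.07. The lists were drawn up with earlier results of these data known and describe these libraries.

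Related homeobox genes did not share 1 state. In the DLX family, which patterns jaws, limbs and forebrain, DLX5 had 487 counts in H3K27me3 and 49 in input, and DLX2 (chr2:172964166-172967628, minus strand) had 12 and 47. Their log2 values were 3.10, with an interval from 2.70 to 3.58, and -2.07, with an interval from -3.21 to -1.22, so the intervals lay far apart. H3K4me3 over input went the opposite way, with 0.29 at DLX5 and 5.20 at DLX2. The msh homeobox pair differed likewise, with 362 and 46 counts at MSX2 (2.77) and 32 and 54 at MSX1 (-0.92, H3K4me3 5.35). The other homeobox genes at least 2-fold below input were RAX2 (-1.55), POU2F1 (-1.27), SIX4 (-1.22), PITX1 (-1.21), PBX3 (-1.20), MEIS2 (-1.15) and ALX4 (-1.01). DLX, MSX and these genes were named after their values were seen.

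Only 9 of 39 HOX genes had enough input to be measured, so the clusters, which pattern the body axis, are described by these alone. At the HOXD cluster, HOXD11 had 433 counts in H3K27me3 and 54 in input (2.80), HOXD13 332 and 48 (2.58), HOXD10 409 and 151 (1.25) and HOXD3 798 and 405 (0.79). HOXB7 was also above 2-fold, with 553 and 171 counts, and HOXA13 had 153 and 68 (0.97). Below input were HOXC4 (146 and 297, -1.21), HOXB13 (28 and 57, -1.18) and HOXC13 (52 and 96, -1.06). The median of the 9 was 0.97, but with at least 50 summed input counts 17 HOX genes were measured and their median was -0.56, and with 1 count in both DMSO libraries 22 genes and -0.57. The 4 measured HOXD genes were all above input and both measured HOXC genes below it.

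Other families of developmental transcription factors held smaller numbers. Of 29 forkhead genes 9 were at least 2-fold above, led by the mesoderm genes FOXF1 (374 and 39 counts, 3.05) and FOXF2 (477 and 51, 3.02) and the endoderm gene FOXA2 (416 and 61, 2.57). Another 6 forkhead genes were at least 2-fold below, the lowest being FOXN2 (-1.40). In the T-box family 6 of 15 were above, among them T, the gene of the early mesoderm (664 and 120 counts, 2.27), and TBX5 of heart and forelimb (2491 and 673, 1.70). TBX6 was the lowest (-1.22).

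All 6 GATA genes were measured, and 3 of them were at least 2-fold above. GATA4, a regulator of heart and endoderm, had 5242 counts in H3K27me3 and 1067 in DMSO input over 83 kb, a log2 of 2.11 with an interval from 2.01 to 2.21. GATA3 had 944 and 270 counts (1.62) and GATA6 936 and 340 (1.27). GATA5 lay near input with 133 and 122 counts (-0.06), and the blood genes GATA2 (97 and 147, -0.78) and GATA1 (32 and 64, -1.16) lay below. GATA2 carried H3K4me3 of 4.09 over input and GATA1 -0.68.

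Of 50 lineage bHLH genes 19 were measured, and 6 of them (31.6%) were at least 2-fold above. HEY1 (294 and 40 counts, 2.67) and NEUROD2 (477 and 79, 2.40) were the highest and HES7 (26 and 54, -1.21) the lowest. The median of -0.09 depended on the filter. It was 1.35 over 34 genes with at least 50 summed input counts and 1.45 over 46 genes with 1 count in both DMSO libraries. Of the 11 ZIC and GLI genes 4 were above, and ZIC5 was the lowest (42 and 110, -1.55). Of 20 SOX genes 7 were measured, and SOX4 (415 and 50, 2.85) passed 2-fold above. Over all developmental transcription factors, 85 of 204 (41.7%) were at least 2-fold above and 24 (11.8%) at least 2-fold below, against 8.99% and 34.4% of protein-coding genes.

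Among the developmental and axon guidance pathways, 37 of 165 genes (22.4%) were at least 2-fold above input, against 8.99% of protein-coding genes. In the WNT list 12 of 34 were at least 2-fold above, among them the ligands WNT7A (3436 and 811 counts, 1.90), WNT16 (605 and 180, 1.56) and WNT5A (886 and 283, 1.46) and the secreted antagonists SFRP2 (530 and 125, 1.89) and SFRP1 (2237 and 541, 1.86). The receptor FZD5 lay below input (47 and 93, -1.16), and WNT10B was the lowest of the list (-1.31). In the TGF-beta and BMP list 9 of 36 were above, with GDF6 (1451 and 236, 2.43), the activin antagonist FST (478 and 89) and the BMP antagonist GREM1 (770 and 175, 1.95). BMP4 (-1.01) and GDF11 (64 and 129, -1.19) were at least 2-fold below.

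In the hedgehog list the ligands SHH (803 and 170 counts, 2.05) and IHH (369 and 89, 1.86) and the coreceptor BOC (3598 and 972, 1.70) were above. The receptors and transducers were not, with PTCH1 at -0.85, SMO at -0.91 and SUFU at -1.01. Of 17 FGF ligands 4 were above, led by FGF3 (646 and 94, 2.58), and FGF20 was the lowest (-1.25). Of 64 axon guidance genes 8 (12.5%) were at least 2-fold above, against 8.99% of protein-coding genes, led by EPHB6 (1026 and 146, 2.62), and 7 (10.9%) were at least 2-fold below, against 34.4%.

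Channels and receptors of nerve and muscle held 23 of 83 potassium channel genes (27.7%) at least 2-fold above, against 8.99% of protein-coding genes, led by KCNA3 (355 and 45 counts, 2.77), and 16 of 88 neurotransmitter receptor genes (18.2%), led by DRD1 (322 and 53, 2.40) and HTR3A (1004 and 189, 2.22). Of 41 cadherins and protocadherins 3 (7.32%) were above, fewer than the 8.99% of protein-coding genes, with PCDH8 the highest (457 and 50, 2.98). PCDHB9 was the lowest (20 and 63, -1.79), and its whole span overlaps other genes, so its count is uncertain.

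Of 43 collagen genes 6 (14%) were at least 2-fold above, against 8.99% of protein-coding genes, led by COL6A3 (3799 and 1124, 1.57), and 5 (11.6%) at least 2-fold below, against 34.4%, with COL11A1 at -1.35. Among 37 laminin and integrin genes, 3 (8.11%) were above, also near 8.99%, with ITGA8 the highest (6945 and 2435, 1.33), and 4 (10.8%) below, with ITGB1 at -1.34. Of 38 matrix protease and inhibitor genes 7 (18.4%) were above, led by ADAMTS15 (1461 and 311, 2.04), and none was 2-fold below. TIMP2 was the lowest (325 and 549, -0.94).

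The keratins were above input about as often as the homeobox genes, but those above input had no high H3K4me3. Of 45 measured keratin genes, 21 (46.7%) were at least 2-fold above and 0 at least 2-fold below, with a median of 0.89. The keratins of stratified skin KRT6A (340 and 59 counts, 2.32), KRT2 (380 and 72, 2.20), KRT9 (337 and 66, 2.15) and KRT1 (257 and 56, 2.00) were the highest. The keratin of simple epithelia KRT8 was the lowest (394 and 682, -0.98), and it carried H3K4me3 of 1.83. No other keratin had H3K4me3 at least 2-fold above input.

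Of 392 olfactory receptor genes only 14 were measured, and 5 of them were at least 2-fold above, with OR2H1 (258 and 87, 1.37) the highest. Among immune genes, 9 of 19 MHC genes were measured. At least 2-fold above were 3 of them (33.3%), against 8.99% of protein-coding genes, all of class II, with HLA-DQB2 the highest (331 and 103, 1.49). The median of the 9 was 0.17 over the DMSO input and -0.06 over the MAK683 input. Class I and class II were not compared. Of 41 chemokine ligand genes 15 were measured, and 2 (13.3%) were at least 2-fold above, against 8.99% of protein-coding genes. These were CXCL6 (383 and 116, 1.53) and XCL1 (126 and 53, 1.05). The median of the 15 was -0.20, but with at least 50 summed input counts it was 0.715 over 30 genes.

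Housekeeping genes lay at the other end. Of 285 in 7 lists, 2 (0.702%) were at least 2-fold above and 179 (62.8%) at least 2-fold below, against 8.99% and 34.4%. Of 47 proliferation genes 36 (76.6%) were below and 0 above, with CCNA2, the cyclin of S phase, the lowest (30 and 93 counts, -1.79) and PCNA at 58 and 172 (-1.74). Of 50 ribosomal protein genes 33 (66%) were below, and RPL39L, a paralog of RPL39, was the highest (1184 and 781, 0.41). The medians were -1.09 for 62 respiratory chain genes, -1.03 for 29 proteasome genes, -1.10 for 27 aminoacyl-tRNA synthetases, -1.10 for 44 translation initiation factors and -0.99 for 26 Mediator genes. The 2 genes above were EIF4E3 (3030 and 908, 1.55) and MED12L (5413 and 2353, 1.02), both paralogs of more general members. EIF4E3 overlaps other genes over its whole span.

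Relative to the median gene, these depletions were small. The median was -0.39 for ribosomal protein genes, -0.37 for proliferation genes and -0.34 for respiratory chain genes, and 3 ribosomal protein genes and 1 proliferation gene lay at least 2-fold below the median gene. The homeobox genes had a median of 1.71 and the keratins of 1.64 on that scale. Lists with medians between -0.75 and 0 over input, such as axon guidance, collagen and forkhead genes, lay above the median gene but not above input.

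Of 59 genes of the Polycomb and SWI/SNF machinery itself, 34 (57.6%) were at least 2-fold below input and 2 (3.39%) at least 2-fold above, against 34.4% and 8.99% of protein-coding genes. Of 12 PRC2 subunit genes, 7 were at least 2-fold below input and none above. EZH2 had 442 counts in H3K27me3 and 926 in input (-1.25), EED 207 and 480 (-1.40) and SUZ12 433 and 779 (-1.03), and AEBP2 was the highest (3353 and 3856, -0.39). Of 19 PRC1 genes 11 were below, and PCGF5 alone was above input (1541 and 774, 0.81). Of 28 SWI/SNF genes 16 were below and 2 were above. Those above were DPF3, a subunit of muscle and nerve (10238 and 3423, 1.39), and SMARCA2, an ATPase of the complex (5840 and 2088, 1.30), while its paralog SMARCA4 had 809 and 1324 (-0.90). SMARCA2 and SMARCA4 were named after their values were seen.

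Zinc finger genes with numbered ZNF names, 408 in all, had 7 (1.72%) above and 133 (32.6%) below, close to all protein-coding genes below and fewer above. ZNF488 was the highest (1136 and 243, 2.03). Of 65 clustered histone genes 7 were measured, 6 of them at least 2-fold below, the lowest being HIST1H2AC (75 and 224, -1.75).

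H3K4me3, which was not used to choose the genes, was at least 2-fold above input at few of the genes high in H3K27me3, and more often at developmental transcription factors among them. Among genes at least 2-fold above input in H3K27me3, 119 of 2278 (5.22%) were also at least 2-fold above in H3K4me3, against 20% of the genes between and 2459 (40%) of those at least 2-fold below. Across genes, Spearman's rho between both ratios was -0.47 over 21263 genes, which are not independent replicates. Both ratios share the DMSO input, so a low input raises both. Of developmental transcription factors with high H3K27me3, 28 of 85 (32.9%) also had H3K4me3 at least 2-fold above input. This was close to the share with such H3K4me3 among all 204 developmental transcription factors, 34.8%, and among protein-coding genes, 31.2%. Of protein-coding genes high in H3K27me3 it was 96 of 1332 (7.21%). In signaling genes these were 6 of 37 and in keratins and olfactory receptors 0 of 26. Where whole genes are counted, H3K4me3 at a start is diluted in long genes, and these shares were not matched for length.

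The genes with both marks included IRX3 (3.66 in H3K27me3 and 3.15 in H3K4me3), CHST2 (3.32 and 3.44), SOX4 (2.85 and 3.08), MSX2 (2.77 and 3.01), HEY1 (2.67 and 3.28), NKX3-2 (2.71 and 3.36) and SHH (2.05 and 1.91). Outside the lists, the immediate early gene JUN (2.59 and 3.48), the pluripotency factor KLF4 (2.95 and 2.67), the chemokine receptor CXCR4 (3.03 and 1.60) and the activity-regulated gene ARC (2.69 and 2.45) were also of this kind. MSX2, NKX3-2 and these 4 genes were named after their values were seen. The counted part of a gene is not named in the sources used here, and whole genes were assumed. On that reading, marks on the same chromatin, on different parts of a gene and in different cells cannot be told apart.

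The genes furthest above input and those nearer to it differed in length and in CG content. CG dinucleotides were counted from 250 bases before to 50 bases after the gene start on GRCh37, with the letters CG, which read the same on both strands, for 14783 of 14821 protein-coding genes (99.7%). Of these windows, 80.8% held 10 or more CG, with a median of 25. The 145 genes at least 4-fold above input had a median of 24 CG and a median length of 7.1 kb, and 53 (36.6%) had H3K4me3 at least 2-fold above input. The 1185 genes between 2-fold and 4-fold above had a median of 18 CG and of 47.5 kb, and 43 (3.63%) had such H3K4me3. Where whole genes are counted, H3K4me3 at a start is diluted in long genes. The part of length in this difference was not tested, and both marks share the DMSO input. Developmental transcription factors made up 53 (36.6%) of the genes at least 4-fold above and 1.38% of all protein-coding genes.

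In the 10% of genes with the fewest CG (0 to 4), 20.4% were at least 2-fold above input, 10.3% were at least 2-fold below, and the median was 0.22. In the middle of the range (22 to 25 CG), 6.22% were above and 46.5% below, with a median of -0.97. At 42 to 70 CG, 7.44% were above and 33.1% below. H3K4me3 moved with CG as well, from 3.38% of genes at least 2-fold above input in the 10% with the fewest CG to 40.8% at 22 to 25 CG. The contrast was present in short and in long genes. Of genes up to 20 kb, 18.4% with fewer than 10 CG and 7.32% with 10 or more were above, and of genes over 20 kb, 16.8% and 6.84%. The share at least 4-fold above did not follow CG in this way, with 3.17% of short CG-rich genes and 1.92% of short CG-poor genes.

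The families differed in CG count too, but their H3K27me3 did not follow it throughout. The median CG count was 3 in keratins, 2 in olfactory receptors, 3 in MHC genes and 5 in chemokine ligands, and 4 of the 45 keratins had 10 or more. It was 21.5 in homeobox genes and 23 in the measured HOX genes. Housekeeping genes had CG-rich starts as well, with a median of 25 in ribosomal protein genes and 28 in proliferation genes, so CG-rich starts were found in families above input and below it. The sequences of SLC32A1 and HSPA8 given above are a pair of this kind.

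The base composition of the whole gene moved with the values too. In the 10% of genes with the lowest G+C (29.4 to 37.3%), 3.31% were at least 2-fold above input, against 13.5% at 44.2 to 46.7% and 3.85% in the highest 10% (56.4 to 70%). The share at least 2-fold below fell from 45.7% in the lowest group to 25.4% in the highest. The ratio of the inputs also drifted, from -0.036 in the lowest group to 0.10 in the highest (medians, log2). The part of base composition in the differences between families was not tested.

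The highest values were found in short genes. In the shortest 10% of genes (median 5.8 kb), 87 of 1483 genes were at least 4-fold above, and in the longest 10% (median 314 kb) 0 of 1482. The median DMSO input count rose from 71 in the shortest group to 3423 in the longest, as for counts over whole genes. Such a count dilutes a signal confined to the start, so levels are not comparable between short and long genes. Even so, 13.4% of the longest group were at least 2-fold above input, against 14.9% of the shortest and 6.41% of the group around 23.3 kb, and the median of the longest was -0.11. Of 3378 genes of at least 100 kb, 382 (11.3%) were at least 2-fold above. The neuronal genes KALRN (25494 and 7757 counts over 693 kb, 1.53), CACNA1C (24423 and 7736 over 727 kb, 1.47), ALK (25681 and 8765 over 729 kb, 1.36) and GRID1 (24526 and 9006 over 767 kb, 1.26) were examples, named after their values were seen. Their high counts made the intervals narrow, from 1.49 to 1.57 for KALRN.

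Genes above input lay next to each other along the chromosomes. Ordered by position, 1562 of 16222 genes with a matched location (9.63%) were at least 2-fold above, in 980 runs. Of them, 907 (58.1%) had a neighbor that was also above. A neighbor is the next gene in this order, and genes not measured or not matched may lie between. The longest run held 11 genes from DSCAML1 to MPZL2 over 837 kb of chromosome 11 (chr11:117298488-118135251), with a median of 1.52. DSCAML1, a neuronal adhesion gene, had 18128 counts in H3K27me3 and 4616 in input (1.79), and MPZL2 414 and 145 (1.32). The run also held the sodium channel subunits SCN2B and SCN4B and the cytokine receptor IL10RA. The next was of 9 genes from MGAM, an intestinal glucosidase (4593 and 1986 counts, 1.02), to PIP (252 and 94, 1.23) on chromosome 7.

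A pair of runs of 8 genes lay on chromosome 1. The run from FCRL6 to KCNJ10 (chr1:159770301-160039950) had a median of 1.68. The run from IL10 to C1orf116 (chr1:206940947-207206101) held the cytokines IL10, IL19, IL20 and IL24 and the immunoglobulin receptor PIGR, with a median of 1.54. IL10 had 278 counts in H3K27me3 and 83 in input (1.55), and 45.6% of its span is free of other genes. The gene starts of this run had between 1 and 8 CG, with a median of 3. The run from FCRL6 to KCNJ10 had a median of 21.5 CG (5 to 32). The runs from DSCAML1 to MPZL2 and from MGAM to PIP also reached CG-rich starts (1 to 36 and 1 to 44), but their medians were 7 and 3.

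A run of 7 keratin genes from KRT75 to KRT74 (chr12:52817854-52967627) had a median of 1.62. KRT75 had 279 and 78 counts (1.64), KRT6B 229 and 65 (1.62), KRT6C 192 and 59, KRT6A 340 and 59 (2.32), KRT5 249 and 85 (1.36), KRT71 391 and 131 (1.39) and KRT74 506 and 136 (1.70). KRT6A stood highest, and the CG counts of the 7 gene starts were between 1 and 8. H3K4me3 stayed under input at each, the highest value being -0.20 at KRT6A. Near-identical keratins such as KRT6A, KRT6B and KRT6C may share reads, so their single values are uncertain.

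Of the ordered genes, 5354 (33%) were at least 2-fold below, in 3115 runs, and 65.2% of them lay beside another. With 33% of genes below, many would lie beside another without any grouping. This share is therefore not comparable with the 58.1% of genes above, which were 9.63% of the ordered genes. The share to be met without grouping was not calculated for either. The longest run held 17 genes from GNPNAT1 to ATG14 on chromosome 14 (chr14:53241911-55878548), with a median of -1.22, and it included BMP4. The starts of its genes held a median of 30 CG. Where genes lie close together or overlap, neighbors can share a signal and its counts, and they are not independent.

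By chromosome, the share of genes at least 2-fold above ran from 2.58% on chromosome 22, 2.66% on chromosome 21 and 2.94% on chromosome 19 to 15.3% on chromosome 13 and 15% on chromosome 18. The share at least 2-fold below ran from 27.4% on chromosome 19 to 40.2% on chromosome 15. By type of gene, 141 of 880 lncRNA genes (16%) and 81 of 483 pseudogenes (16.8%) were at least 2-fold above, against 14.2% of genes without a match, 8.99% of protein-coding genes and 10.7% of all. The highest of the non-coding genes by their lower bound were CCDC140 (641 and 56 counts, 3.31), LINC00599, the host of miR-124-1 (509 and 58, 2.93), and FZD10-AS1 (842 and 107, 2.78). The counting is not stated to use strand, so reads of FZD10-AS1 and of a gene on the other strand cannot be told apart.

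After MAK683 the genes above and below input in DMSO lay closer to input in CPM. Genes at least 2-fold above input in DMSO had a median of 1.32 there and of 1.05 over the MAK683 input in MAK683, where 1313 (57.6%) were still at least 2-fold above and 2270 (99.6%) above input. Genes at least 2-fold below had -1.16 and -0.81. Since the groups were chosen by their DMSO values, some narrowing can follow from the choice. Over all genes 1427 were at least 2-fold above and 2142 at least 2-fold below in MAK683, and Spearman's rho between both treatments was 0.77 across genes. Over the same MAK683 input, the genes above had a median of 1.28 with the H3K27me3 library of DMSO and those below -1.11. IRX3 had 2.47 with the H3K27me3 library of DMSO and 1.99 with that of MAK683, GATA4 1.92 and 1.60, and KRT6A 1.93 and 1.51. NKX1-1 did not lie lower, with 2.88 and 2.92. CPM cannot show a loss of the mark shared by all genes, and spike-in scaling was not used here.

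Low input limited what could be described. The filter left out 35375 genes, of which 19168 had 0 counts in both inputs, and 4324 of the genes left out were protein-coding. A count of 0 allows up to 0.157 CPM in the H3K27me3 library and 0.178 CPM in the DMSO input (3 counts). Among the measured genes the lowest DMSO input count was 26 and the median 325, so folds of the shortest genes are the least certain.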

How the data were processed

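H3K27me3, H3K4me3 and input ChIP-seq of G401 cells was analysed, with 1 library per antibody and treatment and 6 in all, of which H3K4me3 in MAK683 was not used. The 5 libraries used held between 13308099 and 21281877 counts. Reads were trimmed with Trim Galore 0.4.4, aligned to hg19 with Bowtie2 and counted per gene with featureCounts. The paper also states that Picard 2.23.6 was used to deplete what it calls repeat sequences. Its spike-in section speaks of removed duplicates. The authors deposited the raw counts as whole numbers. The study's methods describe a Drosophila spike-in, which the deposited counts do not carry, and the annotation used for counting is not given in the sources used here.

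Counts were divided by column totals, and log2 ratios used a pseudocount of 0.05 CPM for genes with at least 100 summed input counts. Intervals of ratios and shares are 95% exact Clopper-Pearson intervals, and those of medians come from the binomial distribution of ranks. Genes were called at 2-fold, with no test. Of the measured genes, 16222 (76.3%) were matched by symbol to GENCODE release 44 on GRCh37, the build of hg19, and 5041 were not. Printed sequences came from RefSeq on GRCh38.p14, and CG and G+C counts from GRCh37. The computation was tested on simulated counts.

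The measured set, the 35 gene lists and the alternatives were chosen with earlier results of these data known. Named genes were the 15 highest lower bounds and 15 lowest upper bounds among protein-coding genes with at least 50% of their span unshared, the highest and lowest of each list, the ends of the 5 longest runs above input, 3 non-coding genes, SMARCB1, EZH2, EED and SUZ12. Of these, 2 genes are not reported here. Further members of the lists and of the runs are named as examples chosen after their values were seen. The alternatives changed the input, the scale, the pseudocount, the filters and the thresholds. Python 3.11.15, numpy 2.4.6, scipy 1.17.1, pandas 2.3.3 and matplotlib 3.10.9 were used.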

Additional observations from a re-analysis of the deposited data

How the results depend on the processing

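No paired analysis was possible because each antibody and treatment had 1 library. The 2278 genes above input became 5084 when values were centred on the median gene, 1197 with at least 500 summed input counts, 5146 with 1 count in both DMSO libraries as the only filter, 1332 among protein-coding, 1503 among autosomal and 1400 among mostly unshared genes, and 3922 at 1.5-fold and 193 at 4-fold. The 6140 below became 135 when centred, 3761 with at least 500 counts, 9225 with 1 count, 12541 at 1.5-fold, 45 at 4-fold and 1795 by the near bound of the interval. Centring moved calls above from 27.1% to 97.4% of all calls. The filters change the number of genes, and with 500 counts 9.4% of genes were above and 29.5% below. The median of -0.75 was -0.77 over the MAK683 input and over both inputs, 0 when centred by construction, -0.71 with a pseudocount of 0.5 CPM, -0.73, -0.79 and -0.56 with at least 50, 500 and 1 count, and -0.85, -0.83 and -0.83 in protein-coding, autosomal and unshared genes. Without a pseudocount it was -0.76. No median of a list that was past 2-fold changed sign, nor did a named gene past 2-fold. The highest list median was 0.97, so the lists past 2-fold were all below input. Centring adds 0.75 to each value and could not turn one past 2-fold. A pseudocount is added to both CPM values and cannot change the sign of a gene either. For named genes only the input, the scale and the pseudocount were changed, so only the change of input could have turned one. Centring turned 10 of 35 list medians from below to above 0, and the MAK683 input turned 4 (WNT -0.022, potassium channel -0.0018, protease -0.032 and MHC genes -0.057). At least 50 counts turned 4, 1 count 5 and 500 counts 6 of 33. HOX genes were among them each time, with -0.56, -0.57 and -0.21, the last over 2 genes, and keratins at 500 counts, with -0.80 over 3 genes. With at least 50 counts and with 1 count, lineage bHLH genes rose from -0.09 to 1.35 and 1.45. Chemokine ligands rose from -0.20 to 0.715 and 0.73, and forkhead genes from -0.04 to 0.16 and 0.41. What could not be replaced is a second H3K27me3 library, and counting intervals do not cover differences between preparations.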
